A study of Caenorhabditis elegans with 4 samples.

Results

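The genes described here are cct-1 to cct-8 of Caenorhabditis elegans, which code for the 8 subunits of the cytosolic chaperonin. They were chosen by gene name, with earlier results of these data known, and all 8 were found among the 46881 genes listed in the count tables. The series compared wild-type hermaphrodites of the Bristol N2 strain on Bacillus subtilis natto MI-OMU01 with N2 hermaphrodites on Escherichia coli OP50, the usual laboratory food. Worms of both groups were 3 days old when placed on lawns of these bacteria on mNGM plates and stayed there for 1 day. About 200 whole worms were collected in each group, and polyadenylated RNA was sequenced in 2 libraries per group. Whether the 2 libraries of a food were separate cultures is not stated. The p-values below thus reflect library spread alone, estimated in part from all genes together, and that spread could be technical.

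The cytosolic chaperonin, also called CCT or TRiC, is a barrel of stacked rings in which every ring holds 1 copy of each of the 8 subunits. It encloses unfolded proteins and uses ATP to fold them, and it is best known for folding actins and tubulins and some proteins with WD40 repeats. Prefoldin, a smaller complex, hands actin and tubulin chains to it, while HSP70 and HSP90 form the other main cytosolic folding machinery. In C. elegans the complex is needed for microtubules in dividing embryos and for the actin-rich microvilli of the gut, and extra cct-8 in somatic tissue has been found to lengthen life.

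The libraries held 16962082 to 24381952 counted reads, and the deepest was MI-OMU01 replicate 2. Every subunit was well covered, with 2487 reads (cct-3 in MI-OMU01 replicate 1) to 9147 reads (cct-5 in MI-OMU01 replicate 2), and all 8 passed the filter on low counts. The 8 genes together held 0.176% (95% exact binomial interval 0.174 to 0.178) and 0.189% (0.188 to 0.191) of the reads in the MI-OMU01 libraries, against 0.247% (0.2448 to 0.2495) and 0.243% (0.240 to 0.245) in the OP50 libraries. These intervals cover counting error only. Markers of neurons, gut, body wall muscle and germline were all detected in each of the 4 libraries.

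The comparison asked which genes changed with the B. subtilis food, and here all 8 chaperonin subunits were lower in MI-OMU01-fed worms. Counts were scaled with TMM factors to counts per 1000000 reads (CPM), and genes were tested with edgeR's quasi-likelihood test, adjusted over the 14967 genes that passed the filter, with a threshold of 0.05. All 8 subunits passed the test as lower and none as higher, while 15.2% of all tested genes passed as lower, 14.6% as higher and 29.7% in either direction. The count of 0 higher subunits was the same at an unadjusted p under 0.05, in DESeq2 and in limma-voom. The fall ran from 1.27-fold for cct-4 to 1.68-fold for cct-8, with a median log2 fold change of -0.57 against a median of 0.03 over all tested genes. Both MI-OMU01 libraries lay below both OP50 libraries for each of the 8 genes, as was the case for 29.9% of all tested genes. Since the subunits are abundant, a background chosen after the values were seen is also given. Among the 2107 tested genes with a mean of at least 100 CPM, 27.1% passed as lower and 11.4% as higher, with a median log2 fold change of -0.08. The RNA came from whole worms, in which fewer cells of a type and less RNA per cell cannot be told apart.

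**Figure D1:**
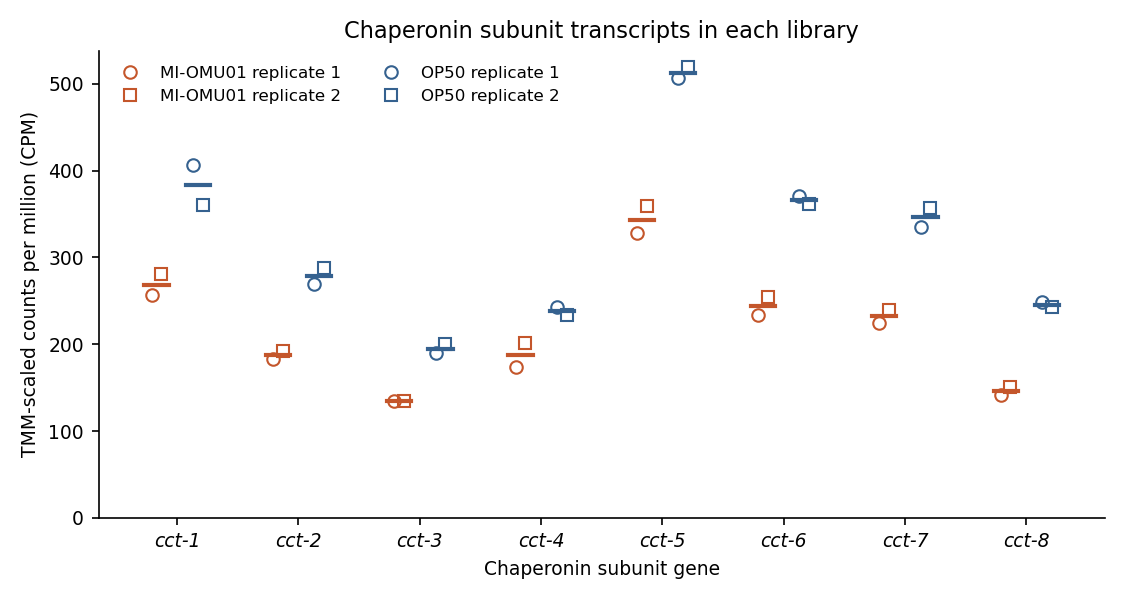
TMM-scaled CPM (vertical axis) of the 8 chaperonin subunit genes in each library, with circles for replicate 1, squares for replicate 2 and a bar at the mean of each group of 2. Each MI-OMU01 value lies below both OP50 values of the same gene, and the groups come closest for cct-4.

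The gene cct-1 (WBGene00000377, chromosome II, 8185443 to 8187601 in WBcel235, plus strand) codes for the alpha subunit, the first to be described in animals as TCP-1. It stood at 256 and 280.4 CPM in the MI-OMU01 libraries, against 407 and 360.5 CPM in the OP50 libraries, a 1.43-fold fall (log2 fold change -0.52, SE 0.11, adjusted p = 0.00102). This gene had the widest spread between the OP50 libraries of all 8, a 1.13-fold difference, which is smaller than the change between the groups. The beta subunit gene cct-2 (WBGene00000378, chromosome II, 8927741 to 8929820, plus strand) stood at 182 and 192 CPM in MI-OMU01-fed worms, against 269 and 288 CPM in OP50-fed worms, and fell 1.49-fold (log2 fold change -0.57, SE 0.10, adjusted p = 0.000248). For the gamma subunit gene cct-3 (WBGene00018782, chromosome II, 2233540 to 2243539, plus strand) both MI-OMU01 libraries gave 134.7 CPM, against 189.7 and 199.7 CPM in the OP50 libraries. Its fall of 1.44-fold (log2 fold change -0.53, SE 0.10, adjusted p = 0.000463) thus stood beside almost no spread within the MI-OMU01 group.

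The delta subunit gene cct-4 (WBGene00000379, chromosome II, 8283667 to 8285711, plus strand) stood at 174 and 201 CPM in the MI-OMU01 libraries, against 243 and 234 CPM in the OP50 libraries. It fell 1.27-fold (log2 fold change -0.34, SE 0.11, adjusted p = 0.0190). The MI-OMU01 libraries differed 1.16-fold from each other, the widest spread within a group of any subunit, and MI-OMU01 replicate 2 lay closest to the OP50 values. The adjusted p of cct-4 was 0.353 (log2 fold change -0.25) when MI-OMU01 replicate 1 was left out. It was 0.140 (log2 fold change -0.21) when libraries were scaled by total counts. The call of this subunit thus rested on 1 library and on the scaling, while its direction was the same in every alternative.

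The genes of the epsilon, zeta and eta subunits changed by almost the same factor. For cct-5 (WBGene00000380, chromosome III, 4499191 to 4508114, minus strand), epsilon, the MI-OMU01 libraries gave 328 and 359 CPM, against 507 and 519 CPM in the OP50 libraries, a 1.49-fold fall (log2 fold change -0.58, SE 0.10, adjusted p = 0.000257). For cct-6 (WBGene00000381, chromosome III, 5853532 to 5855687, minus strand), zeta, they gave 233.6 and 254 CPM, against 370.4 and 361 CPM in OP50, a fall of 1.499-fold (log2 fold change -0.58, SE 0.10, adjusted p = 0.000215). In both genes the gap between the groups was several times wider than the gap between libraries of a group. The eta subunit gene cct-7 (WBGene00020391, chromosome V, 1872246 to 1875526, plus strand) stood at 224 and 239.8 CPM in MI-OMU01-fed worms and 335.5 and 356 CPM in OP50-fed worms, and fell 1.49-fold (log2 fold change -0.58, SE 0.10, adjusted p = 0.000245). Between these 3 genes the log2 fold changes differed by less than the SE of any of them.

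The theta subunit gene cct-8 (WBGene00021934, chromosome IV, 1087095 to 1093920, minus strand) had the largest fall of the 8. It stood at 142 and 150.1 CPM in the MI-OMU01 libraries, against 249 and 242 CPM in the OP50 libraries, a 1.68-fold fall (log2 fold change -0.75, SE 0.10, adjusted p = 1.1e-05). The libraries of each group differed by at most 1.06-fold, so that the groups were far apart. In each of the alternative fits cct-8 had the lowest and cct-4 the highest log2 fold change among the 8 subunits. As this contrast was picked from the extremes, it is given without a test.

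The calls of the family were then set beside the background of each other way of processing. All 8 subunits passed as lower with DESeq2, where 13.4% of all tested genes did, with DESeq2 size factors in edgeR (16.0%), with limma-voom (15.4%), without any filter (11.5%) and after filtering at 5 CPM in 2 libraries (16.7%). All 8 also passed when MI-OMU01 replicate 2 (10.9% of tested genes lower), OP50 replicate 1 (16.4%) or OP50 replicate 2 (14.6%) was left out. The 7 subunits other than cct-4 passed without MI-OMU01 replicate 1 (9.77%) and with scaling by total counts (11.4%). None passed a test against a fold of 1.5, which 5.99% of all tested genes passed as lower, so that a change beyond that size was not shown for any subunit.

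**Figure D2:**
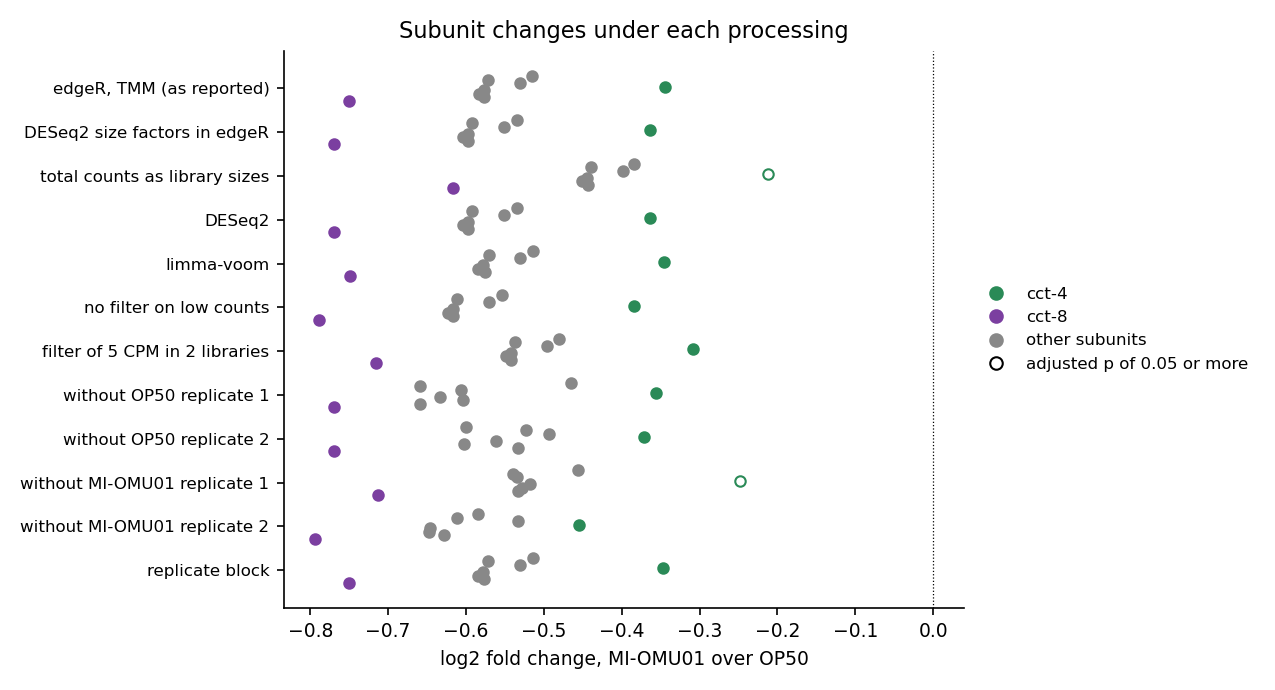
Log2 fold change of MI-OMU01 over OP50 (horizontal axis) for the 8 subunits under each processing (rows, without the test against a fold of 1.5), with open circles where the adjusted p was 0.05 or more. All points lie below 0, cct-8 is the lowest and cct-4 the highest in each row, and the open circles are both cct-4.

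The subunit genes lie apart in the genome, on chromosomes II, III, IV and V, although 4 of them are on chromosome II. In the Ensembl annotation of WBcel235 exons of 6 of them overlapped no other gene. The start or end of cct-2, cct-5, cct-6, cct-7 and cct-8 differs there from the coordinates given with the counts. The overlaps were thus read from an annotation that is not quite the one used for counting. Exons of cct-1 shared 117 bases with T05C12.8 on the other strand, and those of cct-7 shared 28 bases with zig-11, also on the other strand. T05C12.8 had at most 165 reads in a library, where cct-1 had at least 4729, and zig-11 had at most 1251, where cct-7 had at least 4136. The strand setting of the counting is not given in the sources used here, so the values of these 2 subunits may hold reads of these neighbours.

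Levels of different subunits were compared per gene length, as transcripts per 1000000 (TPM) computed from the counts and the gene lengths in the tables, without TMM scaling. The subunits of the complex are used in equal numbers, but their transcripts were not equal. The most abundant subunit in all 4 libraries was cct-5, at 246.5 and 265 TPM in MI-OMU01-fed worms and 338.0 and 337.9 TPM in OP50-fed worms. The least abundant in all 4 was cct-3, at 75.3 and 74.0 TPM in MI-OMU01-fed worms and 94.1 and 96.7 TPM in OP50-fed worms. The ratio of cct-5 to cct-3 was 3.27 and 3.58 in the MI-OMU01 libraries and 3.59 and 3.49 in the OP50 libraries, so that the spread of levels within the complex was of like size on both foods. Even cct-3 was above more than 85.2% of the tested genes in TPM in every library.

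Between these ends the order was cct-1, cct-6, cct-4, cct-7, cct-2 and cct-8 in MI-OMU01-fed worms and cct-1, cct-6, cct-7, cct-2, cct-4 and cct-8 in OP50-fed worms. In the MI-OMU01 group the ranges of cct-4 (136.5 to 155 TPM), cct-7 (137.0 to 144 TPM) and cct-2 (137.3 to 142 TPM) overlapped, so their order there is not given by the data. In the OP50 group cct-1 overlapped with cct-6, and cct-7 with cct-2, while cct-4 (158.9 to 169 TPM) lay below both cct-7 and cct-2. With n = 2 per group these ranges are the whole data. The 8 genes summed to 1197 and 1276 TPM in the MI-OMU01 libraries, against 1630 and 1581 TPM in the OP50 libraries.

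Seen as a share of that sum, the makeup of the family differed little between the foods. The share of cct-8 was 7.26% and 7.09% in the MI-OMU01 libraries, against 8.31% and 8.15% in the OP50 libraries, and that of cct-4 was 11.4% and 12.2% in MI-OMU01, against 10.4% and 10.1% in OP50. The share of cct-6 was 14.86% and 14.91% in MI-OMU01, against 15.4% and 15.1% in OP50. For these 3 genes the groups did not overlap, with cct-4 higher and cct-8 and cct-6 lower in MI-OMU01. With 2 libraries per group the smallest two-sided exact p of such a separation is 0.333, so it shows no difference by itself. The share of cct-5 was 20.6% and 20.8% in MI-OMU01-fed worms, against 20.7% and 21.4% in OP50-fed worms, and that of cct-1 was 16.7% and 16.8% in MI-OMU01, against 17.2% and 15.4% in OP50. Both of these overlapped between the groups, as did the shares of cct-2, cct-3 and cct-7. These shares were examined after the changes were known and were not tested.

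**Figure D3:**
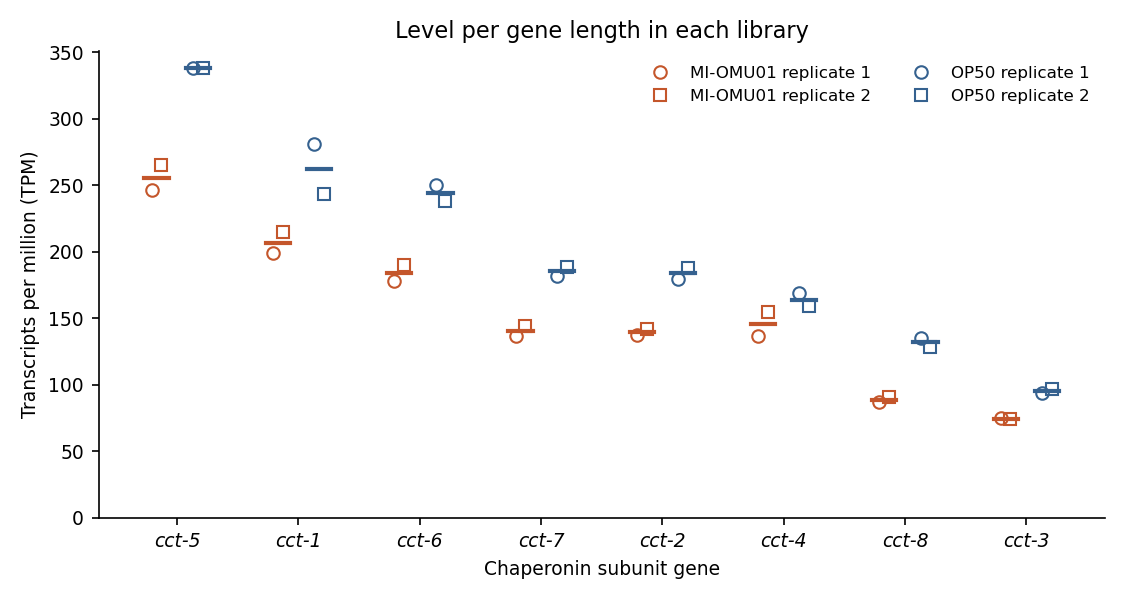
Level per gene length in TPM (vertical axis) of the 8 subunits in each library, ordered by the mean over all libraries, with circles for replicate 1, squares for replicate 2 and a bar at each group's mean of 2. The subunits run from cct-5 at 246.5 to 338.0 TPM down to cct-3 at 74.0 to 96.7 TPM.

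The genes that work with the chaperonin were read from lists written with earlier results of these data known. Of the 6 prefoldin subunits 2 fell and none rose, where 15.2% of all tested genes were lower and 14.6% higher, and their median log2 fold change was -0.29 against 0.03 over all tested genes. The beta-type subunit gene pfd-2 stood at 10.5 and 9.66 CPM in MI-OMU01-fed worms, against 16.7 and 13.6 CPM in OP50-fed worms (log2 fold change -0.59, adjusted p = 0.0132). The alpha-type subunit gene pfd-3 stood at 27.996 and 25.6 CPM in MI-OMU01, against 37.1 and 37.97 CPM in OP50 (log2 fold change -0.49, adjusted p = 0.00732). The other prefoldin genes did not pass, with log2 fold changes of -0.31 for pfd-4 (adjusted p = 0.0524), -0.27 for pfd-5 (adjusted p = 0.0938), -0.17 for pfd-1 (adjusted p = 0.296) and -0.13 for pfd-6 (adjusted p = 0.454). Their MI-OMU01 libraries lay below both OP50 libraries in each, as was the case for 29.9% of all tested genes. For pfd-6 the gap was narrow, at 58.4 and 54.4 CPM in MI-OMU01 against 64.4 and 59.0 CPM in OP50. Without MI-OMU01 replicate 2 no prefoldin gene passed, with adjusted p-values of 0.128 (pfd-2) and 0.140 (pfd-3), and pfd-2 did not pass without OP50 replicate 1 either (0.0624). Scaled by total counts, pfd-6 had a log2 fold change of 0.0029. In edgeR pfd-4 passed as lower with DESeq2 size factors (adjusted p = 0.0357) and without any filter on low counts (adjusted p = 0.0287). For the phosducin-like cofactor gene txdc-9 the log2 fold change was -0.30 (adjusted p = 0.105), and -0.47 without OP50 replicate 1. It passed as lower without any filter on low counts (adjusted p = 0.0489).

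All 5 actin genes fell, beside 15.2% of all tested genes and 27.1% of those with a mean of at least 100 CPM. These 5 genes, all above that level, code for main clients of the chaperonin. The largest fall was that of act-3, which stood at 248 and 293 CPM in the MI-OMU01 libraries, against 454 and 492 CPM in the OP50 libraries (1.75-fold, adjusted p = 1.26e-05). The gut microvillus actin act-5 stood at 540.1 and 607 CPM in MI-OMU01, against 857 and 918 CPM in OP50 (1.55-fold, adjusted p = 0.000138). The smallest was that of act-2 at 1.34-fold (adjusted p = 0.00437, and 0.103 without MI-OMU01 replicate 2). The fall of act-4 was 1.46-fold (adjusted p = 0.00131, and 0.0528 without MI-OMU01 replicate 1), and act-1 fell 1.70-fold (adjusted p = 4.18e-05). The genes act-1 to act-4 are near-identical in sequence, so reads may be split between them and their separate values are uncertain.

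Of 15 alpha and beta tubulin genes 9 fell and 2 rose, beside 15.2% lower and 14.6% higher among all tested genes, and their median log2 fold change was -0.35. The largest falls were those of tba-8 (1.83-fold, adjusted p = 7.69e-05), the touch neuron beta tubulin mec-7 (1.61-fold, adjusted p = 0.000375) and the alpha tubulin mec-12 (1.57-fold, adjusted p = 0.000540). The beta tubulin tbb-6 rose to 8.66 and 10.5 CPM in MI-OMU01-fed worms, against 2.94 and 2.98 CPM in OP50-fed worms (3.24-fold, adjusted p = 9.44e-06), and tba-7 rose 1.36-fold (adjusted p = 0.0209). The tubulin genes of broad expression had smaller falls, with log2 fold changes of -0.36 for tba-2 (adjusted p = 0.0123), -0.35 for tba-1 (adjusted p = 0.0149), -0.38 for tbb-1 (adjusted p = 0.00988) and -0.28 for tbb-2 (adjusted p = 0.0488). These 4 and ben-1 did not pass when either MI-OMU01 library was left out or libraries were scaled by total counts, and 4 tubulins were then lower. Of the fits that left out a library, tba-7 passed only in the one without OP50 replicate 2, and it did not pass in DESeq2 (adjusted p = 0.0548).

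Of the 5 cofactors tbca-1, tbcb-1, tbcc-1, tbcd-1 and tbce-1, which assemble tubulin after the chaperonin releases it, 0 passed the edgeR test in either direction, with log2 fold changes of -0.13 to 0.03. Among 7 other known clients 0 passed: the WD40 proteins fzy-1 and fzr-1 of the anaphase-promoting complex, the G protein beta subunits gpb-1 and gpb-2, gamma tubulin tbg-1, mlst-8, and daf-15, the worm raptor. Their log2 fold changes ran from -0.20 to 0.25. Beside both counts of 0 stand the 29.7% of all tested genes that passed in either direction, in lists of only 5 and 7 genes. In both lists the count was also 0 at an unadjusted p under 0.05, in DESeq2 and in limma-voom. Scaled by total counts, fzr-1 (adjusted p = 0.0438) and gpb-2 (adjusted p = 0.0330) passed as higher.

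**Figure D4:**
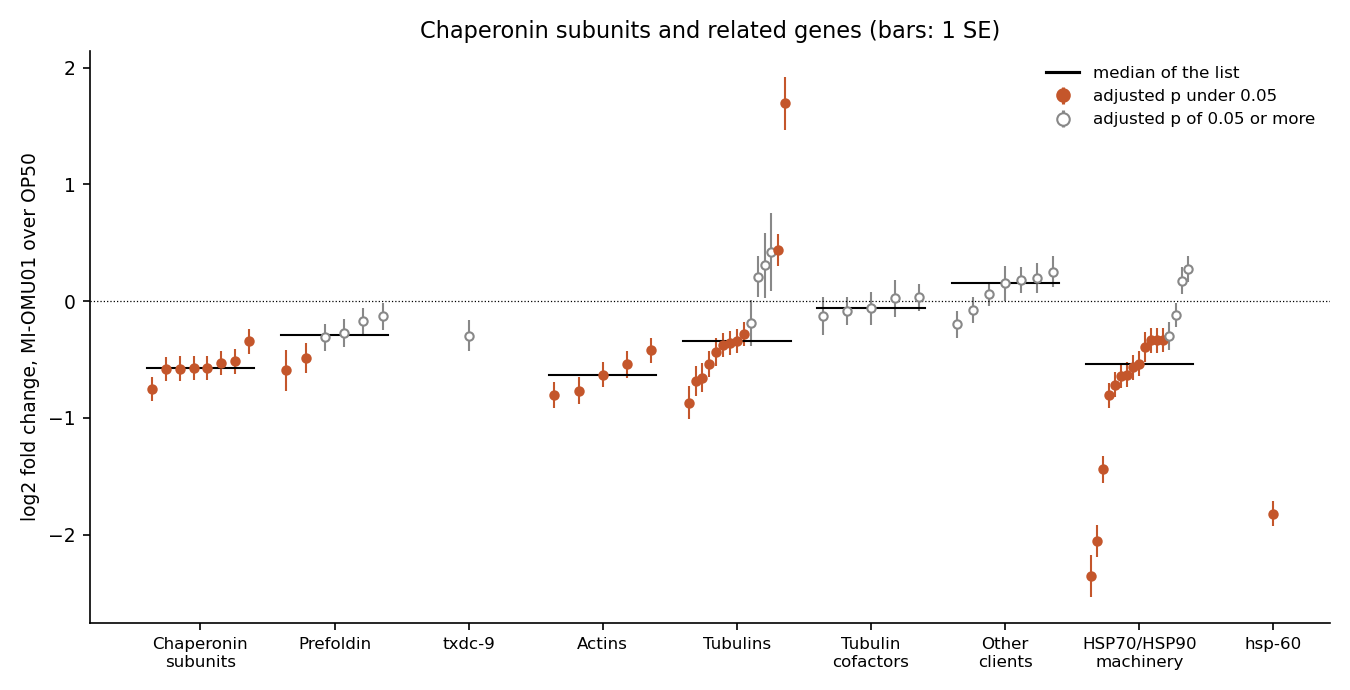
Log2 fold change of MI-OMU01 over OP50 (vertical axis) for each chaperonin subunit and each gene of the related lists, with bars of 1 SE, filled circles where the edgeR adjusted p was under 0.05 and a line at each list's median. All chaperonin subunits and actins are filled and below 0, tubulin cofactors and other clients lie around 0, and the HSP70 and HSP90 genes reach from 0.28 down to -2.35.

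Of 17 genes of the HSP70 and HSP90 machinery 13 fell and none rose, beside 15.2% lower and 14.6% higher among all tested genes, with a median log2 fold change of -0.54 against -0.57 for the chaperonin subunits. The count of 0 higher genes was 1 at an unadjusted p under 0.05 and 0 in DESeq2 and limma-voom. Scaled by total counts, 9 genes of this list were lower and 1 higher, where 11.4% of all tested genes were lower. The calls lost with that scaling were those of dnj-19 (adjusted p = 0.134), hip-1 (0.162), bag-1 (0.130) and the HSP90 gene. The constitutive HSP70 gene hsp-1 stood at 2665 and 2874 CPM in the MI-OMU01 libraries, against 4585 and 4520.1 CPM in the OP50 libraries (1.64-fold lower, adjusted p = 3.20e-05). The largest falls were those of unc-23, a BAG-type cochaperone (5.11-fold, adjusted p = 1.75e-06), hsp-110, a nucleotide exchange factor of HSP70 (4.17-fold, adjusted p = 1.21e-09), and the DNAJ cochaperone gene dnj-13 (2.72-fold, adjusted p = 8.42e-09). Each of these exceeded the fall of every chaperonin subunit in size, a difference that was not tested.

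The HSP90 gene, listed as hsp-90 and formerly daf-21, fell 1.26-fold (adjusted p = 0.0250), close to cct-4 in size. Its adjusted p was 0.332 without MI-OMU01 replicate 1, 0.106 without MI-OMU01 replicate 2, 0.0656 with the filter of 5 CPM and 0.129 when scaled by total counts. The log2 fold change of the heat shock factor gene hsf-1 was 0.28 (adjusted p = 0.0710), with its MI-OMU01 mean above its OP50 mean. It passed as higher without OP50 replicate 1 (adjusted p = 0.0252), with the filter of 5 CPM (adjusted p = 0.0424) and when scaled by total counts (adjusted p = 0.00895). The mitochondrial chaperonin gene hsp-60, which belongs to a separate chaperonin group of bacterial origin, stood at 123.0 and 119.6 CPM in MI-OMU01-fed worms, against 435 and 423 CPM in OP50-fed worms. Its log2 fold change was -1.82, against -0.75 for cct-8.

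Marker lists give what else differed between the foods. Beside each count stand the 15.2% of all tested genes that were lower, or 27.1% of those of at least 100 CPM, and the 14.6% that were higher, or 11.4% of those of at least 100 CPM. Of 7 body wall muscle markers 5 fell and none rose. The largest falls were those of the troponin genes unc-27 (2.13-fold) and mup-2 (1.72-fold) and the myosin heavy chain gene unc-54 (1.40-fold). Summed over the list, they stood at 6763 and 7925 CPM in the MI-OMU01 libraries, against 9165 and 10720 CPM in the OP50 libraries. Scaled by total counts 3 of these markers were lower, and with the filter of 5 CPM 4 were. With limma-voom, with DESeq2 size factors in edgeR or without any filter, 6 were lower. Without MI-OMU01 replicate 1 the log2 fold changes were -0.40 for unc-54, -0.30 for unc-15 and -0.24 for lev-11. With all libraries they were -0.49, -0.40 and -0.37. The log2 fold change of myo-3, another myosin gene, was 0.10 (adjusted p = 0.599). The part of muscle in the fall of the chaperonin genes was not tested.

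Of 20 germline and oocyte markers 1 fell, the P granule helicase gene glh-1 (1.28-fold, adjusted p = 0.0293), and the list's median log2 fold change was -0.0042. The list summed to 9732 and 8661 CPM in MI-OMU01, against 10259 and 8170.3 CPM in OP50, so that it differed more between libraries of a group than between the groups. Without OP50 replicate 2, 5 of these markers were lower and none higher. Without OP50 replicate 1 none were lower and 2 were higher, the oocyte genes puf-5 (adjusted p = 0.0304) and pos-1 (adjusted p = 0.0402), so that the direction turned with the OP50 library left out. The call of glh-1 was also lost when MI-OMU01 replicate 1 or MI-OMU01 replicate 2 was left out. Of 7 neuron markers egl-21, a neuropeptide processing enzyme, rose 1.42-fold (adjusted p = 0.0536 without MI-OMU01 replicate 2) and none fell, a share near that of all tested genes, at sums of 961 and 1072 CPM over the list in MI-OMU01, against 762 and 902 CPM in OP50. The synaptic vesicle gene snb-1 (log2 fold change 0.21, adjusted p = 0.139) passed as higher when scaled by total counts (adjusted p = 0.0152). With all 4 libraries the counts of higher prefoldin, muscle and germline genes and of lower neuron genes were 0 in edgeR, also at an unadjusted p under 0.05, and 0 in DESeq2 and limma-voom. Of 5 gut markers ges-1 and vha-6 rose and the peptide transporter gene pept-1 fell 2.63-fold, and neither rise passed in DESeq2 or when OP50 replicate 1 or either MI-OMU01 library was left out. The gut list summed to 983 and 1097 CPM in MI-OMU01, against 989 and 1015 CPM in OP50. Of 4 hypodermis markers the cuticle collagen genes rol-6 (10.4-fold) and dpy-7 (2.15-fold) fell, at sums of 299.8 and 255 CPM over the list in MI-OMU01, against 643 and 719 CPM in OP50. The other hypodermis markers were the transcription factor genes elt-3 (log2 fold change 0.21, adjusted p = 0.352) and lin-26 (0.18, adjusted p = 0.229). Both passed as higher without OP50 replicate 2 (adjusted p = 0.0116 for elt-3 and 0.0412 for lin-26), and lin-26 when scaled by total counts (0.0311), while the log2 fold change of elt-3 was -0.06 without OP50 replicate 1. The adjusted p of rol-6 was 0.272 when OP50 replicate 1 was left out and 0.275 when OP50 replicate 2 was.

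Of 6 embryo markers that passed the filter tbx-38, tbx-37 and pes-10 fell. Reads were few for tbx-37, at 8 and 6 in MI-OMU01 against 16 and 16 in OP50, and it did not pass in DESeq2 (adjusted p = 0.178). They were few for tbx-38 too, at 9 and 1 in MI-OMU01 against 25 and 39 in OP50. The list summed to 22.96 and 22.5 CPM in MI-OMU01, against 25.9 and 24.5 CPM in OP50. Most of these sums came from hlh-1, at 16.7 and 18.3 CPM in MI-OMU01, against 14.5 and 13.1 CPM in OP50 (log2 fold change 0.34, adjusted p = 0.116, and 0.0248 when scaled by total counts). The log2 fold change was 0.92 for end-3 (adjusted p = 0.189) and -0.51 for end-1 (adjusted p = 0.546). The endoderm gene med-1 was at 0 in 3 libraries, and tbx-37 did not pass in any of the fits that left out a library. Sperm markers summed to 8.88 and 11.5 CPM in MI-OMU01, against 7.91 and 6.69 CPM in OP50, with gsp-3 higher of the 5 tested. That call was lost in DESeq2 and without MI-OMU01 replicate 2 or OP50 replicate 2, and spe-38 was at 0 in OP50 replicate 1. The part of these cell types in the fall of the chaperonin genes was not tested either.

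Likeness to the chaperonin profile was measured as the root mean square difference in log2(CPM + 1), centred on each gene's mean over the 4 libraries, from the mean profile of the 8 subunits. Among the 6671 other genes with a mean of at least 20 CPM the nearest was the glutamate transporter gene glt-1, at a distance of 0.0105. It stood at 126.5 and 136 CPM in MI-OMU01, against 197 and 196 CPM in OP50. Next came gta-1 (0.0171), the oligosaccharyltransferase subunit gene ostb-1 (0.0177), the alpha tubulin tba-4 (0.0178), the integrin-linked kinase pat-4 (0.0195), K01G5.5 (0.0203), the ribosomal protein gene rpl-41.2 (0.0208) and C29E4.12 (0.0213). All 8 were lower, by 1.43-fold to 1.499-fold, which the choice by likeness to a profile that itself falls had fixed, and C29E4.12 did not pass without MI-OMU01 replicate 1 (adjusted p = 0.0610). The subunits themselves lay at 0.0189 (cct-5) to 0.112 (cct-4), with 4 other genes nearer than cct-5 and 535 nearer than cct-4. Over 4 libraries many genes thus lay as near to the mean profile as the subunits did.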

How the data were processed

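Polyadenylated RNA of whole worms was sequenced in 4 libraries, and groups and replicate numbers were taken from the sample titles. The authors deposited 1 table of raw read counts and gene lengths for each library. The submitters' processing notes name STAR 2.7.2b, featureCounts 1.6.4, Trim Galore 0.6.5, cutadapt 2.7 and Trimmomatic 0.39, and the builds WBcel235 and ce11. The sources used here do not give the order or settings of these steps, the strand setting or how reads with several matches were treated.

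From the counts, edgeR 4.0.16 (R 4.3.3) was run with filterByExpr (minimum count 10, total 15), TMM factors of 0.948 to 1.05, a robust quasi-likelihood fit with the group as its only term, and Benjamini-Hochberg adjustment. SE values were taken as the absolute log2 fold change divided by the root of F. TPM values use the listed lengths. Coordinates are those of the files, and overlaps come from Ensembl release 115. The script was checked on simulated counts with known answers. It recovered 53.7% of genes changed 1.5-fold, 88.1% of those changed 2-fold and 97% of those changed 4-fold, with 8 false calls. Changes of 1.5-fold or less can thus be missed, and a gene that did not pass is not shown to be unchanged. The simulation changed few genes and gave every gene the same relative spread, unlike the data. Its rates need not hold for the subunits.

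The members and gene lists were chosen with earlier results of these data known. All 8 subunits, all prefoldin genes and 7 other chaperone genes were to be named, of which hsp-10 had no match, with up to 3 changes per direction in each related list and the 8 nearest profiles, and not each is printed. No set test was run. Replicates differed beyond sampling noise (chi-square per gene 11.3 in OP50 and 9.91 in MI-OMU01). Alternatives were DESeq2 1.42.0 and its size factors, total counts as library sizes, limma-voom (limma 3.58.1), other filters on low counts, leave-one-out fits, a fit blocked on replicate number, and a test against a fold of 1.5.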

Additional observations from a re-analysis of the deposited data

How the results depend on the processing

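The 12 alternatives gave 96 results for the 8 subunits, of which 86 kept direction and side of the threshold and none changed sign. All 8 subunits passed as lower in 9 alternatives and 7 in 2 of them, total counts as library sizes (11.4% of all tested genes lower) and the fit without MI-OMU01 replicate 1 (9.77% lower), both times without cct-4. Against a fold of 1.5 with edgeR's glmTreat 0 subunits passed (1 at an unadjusted p under 0.05, cct-8, with an adjusted p of 0.128), and 897 genes (5.99%) were lower and 771 higher. For these losses the cause was not tested. The median log2 fold change of the subunits was -0.44 with total counts as library sizes, a scaling that moved the median of all tested genes to 0.16, and the gap between both medians stayed at -0.61 (-0.60 with total counts). That scaling called 3206 genes higher and 1706 lower, against 2178 and 2271 with TMM. Leaving out 1 library gave medians of -0.62 to -0.53 for the subunits, 7 to 8 of them lower, and 1505 to 2563 genes lower and 1262 to 2297 higher. The ratio of the most to the least abundant subunit was 3.49 per length and 2.60 in CPM with no length correction. With the replicate block all 8 subunits passed (median -0.57), 2917 genes were lower and 2890.0 higher, and 4 prefoldin genes, txdc-9, hsf-1, hlh-1 and snb-1 passed too, while the collagen gene rol-6 did not (adjusted p = 0.0853). Replicate numbers are shared between the groups but nothing says that they pair libraries; deviations from the group means correlated at r = 0.21 across genes. Each subunit had at least 2487 reads in a library, while pfd-2 had 193 to 272; the part of depth was not tested.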
